A study of Mus musculus with 8 samples.

Results

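The 39 genes described here were all the rows of the deposited gene table whose symbol was Hoxa, Hoxb, Hoxc or Hoxd followed by digits alone, out of 24015 rows. Rows were taken by name, and none was added or left out by its values. The family itself was chosen with earlier results of these data known. The question put to these genes was which of them were detected in each library of a brain tissue that lies in front of their normal domain. The study sequenced messenger RNA from 8 mice at postnatal day 7 (P7), all C57BL/6N, to ask what the loss of 1b, a conserved non-coding interval of the sodium channel gene Scn1a, does to gene expression. WT mice carried no deletion (n = 2, both male), 1b+/- mice were heterozygous for a Cas9-made deletion of 1b (n = 4, of which replicates 1 and 2 were male and replicates 3 and 4 female) and 1b-/- mice were homozygous (n = 2, both female). Each library came from 1 animal of this one deletion line. WT animals were male and 1b-/- animals female, so sex and genotype cannot be told apart in that comparison. The tissue is given as hippocampus in the labels but as forebrain in the study's methods.

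Hox genes encode homeodomain transcription factors that give cells along the body axis their regional identity. In mammals they lie in 4 clusters, and their order along a cluster follows the order of their expression domains from front to back. Genes at the front end of a cluster (low paralog numbers) are expressed in the hindbrain and in the neural crest that leaves it, those of the middle in the cervical and thoracic spinal cord and body wall, and those at the back end in lumbar and sacral levels, limbs and the urogenital tract. The forebrain and midbrain develop without Hox expression, where Polycomb proteins keep the clusters silent, so Hox transcripts in a forebrain library can serve as a mark of other tissue.

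In the coordinates of the mm9 build, as given by GENCODE, the Hoxa cluster held 11 of the genes at chr6:52105366-52210874 on the minus strand. The Hoxb cluster held 10 at chr11:96055630-96229570, the Hoxc cluster 9 at chr15:102751534-102867274 and the Hoxd cluster 9 at chr2:74506367-74603200, all on the plus strand. Hoxd shares its chromosome with Scn1a. By position in the clusters, 15 genes belonged to paralog groups 1 to 5, 12 to groups 6 to 9 and 12 to groups 10 to 13. The coding sequence of the homeobox is the part of these genes that is most alike, and reads of 50 bases from it are the hardest to give to 1 member. The stretch of 30 bases below encodes 10 residues of the third helix, which reads the bases of the DNA. It is shown in lower case, 5′ to 3′ on the coding strand, for Hoxa5, Hoxd8 and Hoxc9, the 3 members with the most counts in the series, for Hoxc13, which had the largest count in a single library, and for Hoxa7 and Hoxb4, whose stretch was the same. Capitals mark each base that differs from Hoxa5.

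Hoxa5: aaaatctggttccaaaacaggaggatgaag
Hoxd8: aaaatctggttccaGaacaggagAatgaaA
Hoxc9: aaaatctggttTcaGaacCggaggatgaag
Hoxc13: aCCatctggttccaGaaTCgACgCGtgaaA
Hoxa7: aaGatctggttccaGaaTCggCgCatgaag
Hoxb4: aaGatctggttccaGaaTCggCgCatgaag

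Across the 39 members the stretch differed from that of Hoxa5 at 3 to 10 of the 30 bases. Among 741 pairs, 4 were identical (those of Hoxa6, Hoxa7 and Hoxb4 among them), and the median pair differed at 5 bases. Over whole protein-coding transcripts, 31 of the 39 members held no run of 50 bases that occurs in another member. The 8 that did were Hoxb7 with Hoxb8 and Hoxd3 with Hoxd4, which overlap on the same strand, and Hoxa6 with Hoxb4 and Hoxb9 with Hoxc9, which shared 3 and 1 such runs. An antisense gene overlapped exons of 8 members, among them Hoxb2 and Hoxb3, and the sources used here do not state whether counting used strand, so values of overlapping and antisense pairs are uncertain.

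Some libraries stood apart, as their values below show: 1b+/- replicate 4 and 1b-/- replicate 2 were the shallowest, 1b+/- replicate 1 was high in hindbrain, meningeal and skeletal genes and in most midbrain and cerebellar markers, and WT replicate 1 was high in epidermal and mesothelial genes. Every library held a few Hox counts, and in none of them were these genes abundant. Summed over the 39 members, the count was 211 and 40 in WT replicates 1 and 2, 160, 292, 166 and 7 in 1b+/- replicates 1 to 4, and 152 and 5 in 1b-/- replicates 1 and 2. The largest count of any member in any library was 21, for Hoxc13 in 1b+/- replicate 2, and the highest level was 2.12 counts per 1000000 counts of the library (CPM). Over all libraries the members held from 2 (Hoxa6) to 65 (Hoxa5) counts, with a median of 26. Each of the 39 had a count in at least 1 library, and none had 3 or more counts in every library.

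Levels are given below as CPM scaled by TMM, a method that corrects library size for differences in composition. The summed Hox level was 17.4 CPM and 6.13 CPM in WT, 10.6, 29.4, 8.04 and 2.34 CPM in 1b+/- and 18.6 and 1.25 CPM in 1b-/-. The highest library (1b+/- replicate 2) was 23.5 times the lowest (1b-/- replicate 2), and the high and low libraries were spread over all 3 genotypes. As CPM of the unscaled total, with exact 95% Poisson intervals that cover counting error only, 1b+/- replicate 2 held 29.5 (26.2 to 33.1), whereas WT replicate 1 held 16.8 (14.6 to 19.2) and 1b-/- replicate 1 held 18.1 (15.3 to 21.2). At the other end, 1b+/- replicate 4 held 2.37 (0.955 to 4.89) and 1b-/- replicate 2 held 1.27 (0.412 to 2.96). In a bulk library, a lower level can come from fewer cells of a type or from less RNA per cell, and the 2 cannot be told apart.

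Total counts ranged from 2947770 (1b+/- replicate 4) to 20878772 (1b+/- replicate 3), and 0 counts (taken as under 3) allowed a level of up to 1.02 and 0.144 CPM in those libraries. The number of members detected moved with this depth. At least 1 count was found for 37 and 24 members in WT, for 33, 36, 36 and 7 in 1b+/- and for 35 and 5 in 1b-/-. With 3 or more counts required, 28 and 4 members were detected in WT, 25, 33, 28 and 0 in 1b+/- and 20 and 0 in 1b-/-. The order of the libraries was not that of depth. At the depth of the smallest library, 30.9 members would be expected to have a count in 1b+/- replicate 2, 25.2 in WT replicate 1 and 25.2 in 1b-/- replicate 1. At that same depth 16.6 would have one in 1b+/- replicate 3, the deepest library, and 13.7 in WT replicate 2, 19.9 in 1b+/- replicate 1, 7.0 in 1b+/- replicate 4 and 3.74 in 1b-/- replicate 2.

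**Figure D1:**
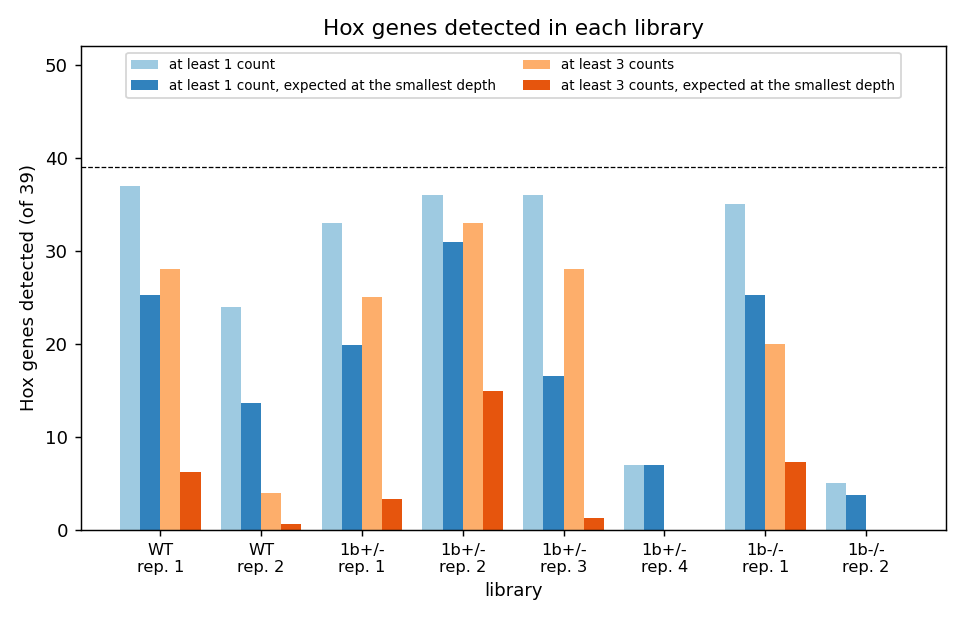
Number of Hox genes detected (vertical axis) in each of the 8 libraries (horizontal axis), with at least 1 or at least 3 counts, as deposited and as the number to be expected at the depth of the smallest library (2947770 counts). The dashed line marks all 39 genes. With at least 1 count, the bars as deposited stand between 33 and 37 in 5 libraries, and 1b+/- replicate 4 and 1b-/- replicate 2 stand at 7 and 5.

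Genes of paralog groups 1 to 5, those of the hindbrain and cervical levels, are the members on which a hindbrain source would be read. In group 1, Hoxb1, which gives facial motor neurons their identity, had 6 and 0 counts in WT, 5, 5, 1 and 0 in 1b+/- and 5 and 1 in 1b-/-, where replicates are given in order. Hoxd1, a factor of sensory neurons that respond to painful stimuli, had 8 and 4 counts in WT, 5, 10, 4 and 0 in 1b+/- and 11 and 0 in 1b-/-. It reached 10 or more counts in 1b+/- replicate 2 and 1b-/- replicate 1, while Hoxb1 had at most 6 in any library.

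In group 2, Hoxa2 sets the identity of the anterior hindbrain and the second pharyngeal arch, and it had 11 and 0 counts in WT, 12, 7, 0 and 0 in 1b+/- and 1 and 0 in 1b-/-. Its counts came almost wholly from 3 libraries, WT replicate 1 and 1b+/- replicates 1 and 2. Hoxb2, which acts with Hoxb1 in the facial motor nucleus, had 7 and 0 counts in WT, 4, 12, 2 and 0 in 1b+/- and 2 and 0 in 1b-/-, with its largest count in 1b+/- replicate 2. In group 3, Hoxa3, needed for the thymus and parathyroid, had 4 and 1 counts in WT, 4, 3, 6 and 0 in 1b+/- and 0 and 0 in 1b-/-. Hoxb3 had 4 and 1 counts in WT, 12, 12, 5 and 0 in 1b+/- and 5 and 0 in 1b-/-, and Hoxd3, which shapes the first cervical vertebra, had 5 and 1 counts in WT, 13, 7, 5 and 0 in 1b+/- and 2 and 0 in 1b-/-. Both stood high in 1b+/- replicates 1 and 2, at 12 or 13 and 7 or 12 counts, and no other library held more than 5.

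Group 4 genes have their front limit in the caudal hindbrain. Hoxa4 had 0 and 0 counts in WT, 5, 6, 4 and 0 in 1b+/- and 2 and 0 in 1b-/-, so that it had no count in either WT library. Hoxb4, also a regulator of blood stem cells, had 7 and 1 counts in WT, 3, 0, 0 and 0 in 1b+/- and 2 and 0 in 1b-/-, which left it without a count in 1b+/- replicate 2, the library with the highest Hox sum. Hoxc4 had 8 and 2 counts in WT, 2, 10, 5 and 0 in 1b+/- and 5 and 0 in 1b-/-. Hoxd4, whose exons overlap those of Hoxd3, had 7 and 1 counts in WT, 6, 6, 6 and 0 in 1b+/- and 2 and 1 in 1b-/-. In group 5, Hoxa5 acts in lung formation and in the motor neurons that drive breathing, and it had 11 and 2 counts in WT, 8, 14, 16 and 1 in 1b+/- and 13 and 0 in 1b-/-. It was the member with the most counts and the most counts per length, at 34.6 per kilobase of exon over all libraries against 9.40 for all 39 members together. Hoxb5 had 2 and 1 counts in WT, 4, 7, 1 and 0 in 1b+/- and 3 and 0 in 1b-/-, and Hoxc5, which acts with Hoxa5 in phrenic motor neurons, had 2 and 3 counts in WT, 4, 6, 8 and 0 in 1b+/- and 5 and 0 in 1b-/-.

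Groups 6 to 9 mark brachial and thoracic levels. Hoxb6 had 7 and 0 counts in WT, 0, 5, 7 and 0 in 1b+/- and 1 and 0 in 1b-/-, and Hoxc6, a marker of forelimb level, had 0 and 2 counts in WT, 2, 13, 1 and 0 in 1b+/- and 1 and 0 in 1b-/-. The 13 counts of Hoxc6 in 1b+/- replicate 2 were set against at most 2 elsewhere. Hoxa7 had 4 and 0 counts in WT, 0, 6, 3 and 0 in 1b+/- and 3 and 0 in 1b-/-. Hoxb7 had 5 and 1 counts in WT, 1, 0, 3 and 0 in 1b+/- and 3 and 0 in 1b-/-, and its overlapping neighbour Hoxb8, which is also expressed by a lineage of microglia, had 7 and 2 counts in WT, 5, 10, 4 and 0 in 1b+/- and 3 and 0 in 1b-/-. Hoxc8, which directs brachial motor neurons to their muscles, had 5 and 4 counts in WT, 3, 10, 8 and 1 in 1b+/- and 11 and 0 in 1b-/-. Hoxd8 had 14 and 0 counts in WT, 4, 16, 5 and 0 in 1b+/- and 10 and 0 in 1b-/-, with 10 or more in WT replicate 1, 1b+/- replicate 2 and 1b-/- replicate 1 and at most 5 in the other libraries.

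Of group 9, Hoxa9, known from blood progenitors and leukaemia, had 3 and 3 counts in WT, 12, 6, 6 and 0 in 1b+/- and 4 and 0 in 1b-/-, highest in 1b+/- replicate 1. Hoxb9 had 2 and 0 counts in WT, 7, 9, 1 and 1 in 1b+/- and 5 and 1 in 1b-/-. Hoxc9, which separates thoracic from limb-level motor columns, had 7 and 1 counts in WT, 2, 13, 12 and 0 in 1b+/- and 11 and 0 in 1b-/-, and Hoxd9 had 5 and 2 counts in WT, 7, 15, 7 and 0 in 1b+/- and 2 and 0 in 1b-/-. In counts per exon length, Hoxd1 (22.5 per kilobase) and Hoxc9 (18.9) came after Hoxa5. Hoxa6, also of the middle groups, was lowest at 0.994 per kilobase, with 2 counts in all.

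Groups 10 to 13 are genes of lumbar and sacral levels, limbs, genital tract and skin appendages. Hoxa10, a uterine and lumbar gene, had 17 and 0 counts in WT, 0, 11, 5 and 1 in 1b+/- and 4 and 1 in 1b-/-, and the library with most was WT replicate 1. Hoxc10 had 5 and 1 counts in WT, 5, 4, 3 and 0 in 1b+/- and 6 and 0 in 1b-/-, and Hoxd10, which acts in lumbar motor neurons, had 1 and 1 counts in WT, 3, 4, 4 and 0 in 1b+/- and 1 and 0 in 1b-/-. Hoxa11, a gene of the forearm and uterus whose exons overlap an antisense transcript, had 4 and 2 counts in WT, 2, 2, 6 and 0 in 1b+/- and 0 and 0 in 1b-/-. Hoxd11, which patterns the forearm together with Hoxa11, had 16 and 1 counts in WT, 5, 12, 6 and 0 in 1b+/- and 2 and 0 in 1b-/-, again highest in WT replicate 1. The 2 genes of group 12 were low, at 1 and 0 counts in WT, 2, 5, 3 and 1 in 1b+/- and 6 and 0 in 1b-/- for Hoxc12 and 2 and 0 counts in WT, 3, 3, 3 and 0 in 1b+/- and 2 and 0 in 1b-/- for Hoxd12.

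In group 13, Hoxa13, needed for the hand, foot and urogenital tract, had 3 and 0 counts in WT, 1, 1, 4 and 1 in 1b+/- and 0 and 0 in 1b-/-. Hoxd13, the digit gene, had 4 and 0 counts in WT, 5, 12, 4 and 0 in 1b+/- and 6 and 0 in 1b-/-. Hoxc13, which drives keratin genes of hair and nail, had 6 and 1 counts in WT, 1, 21, 2 and 1 in 1b+/- and 8 and 1 in 1b-/-, and its 21 counts in 1b+/- replicate 2 were the largest value of any member. Hoxa6, Hoxb13 and Hoxc11, the 3 members with under 10 counts in all, had 2, 6 and 9 counts and never more than 3 in a library.

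**Figure D2:**
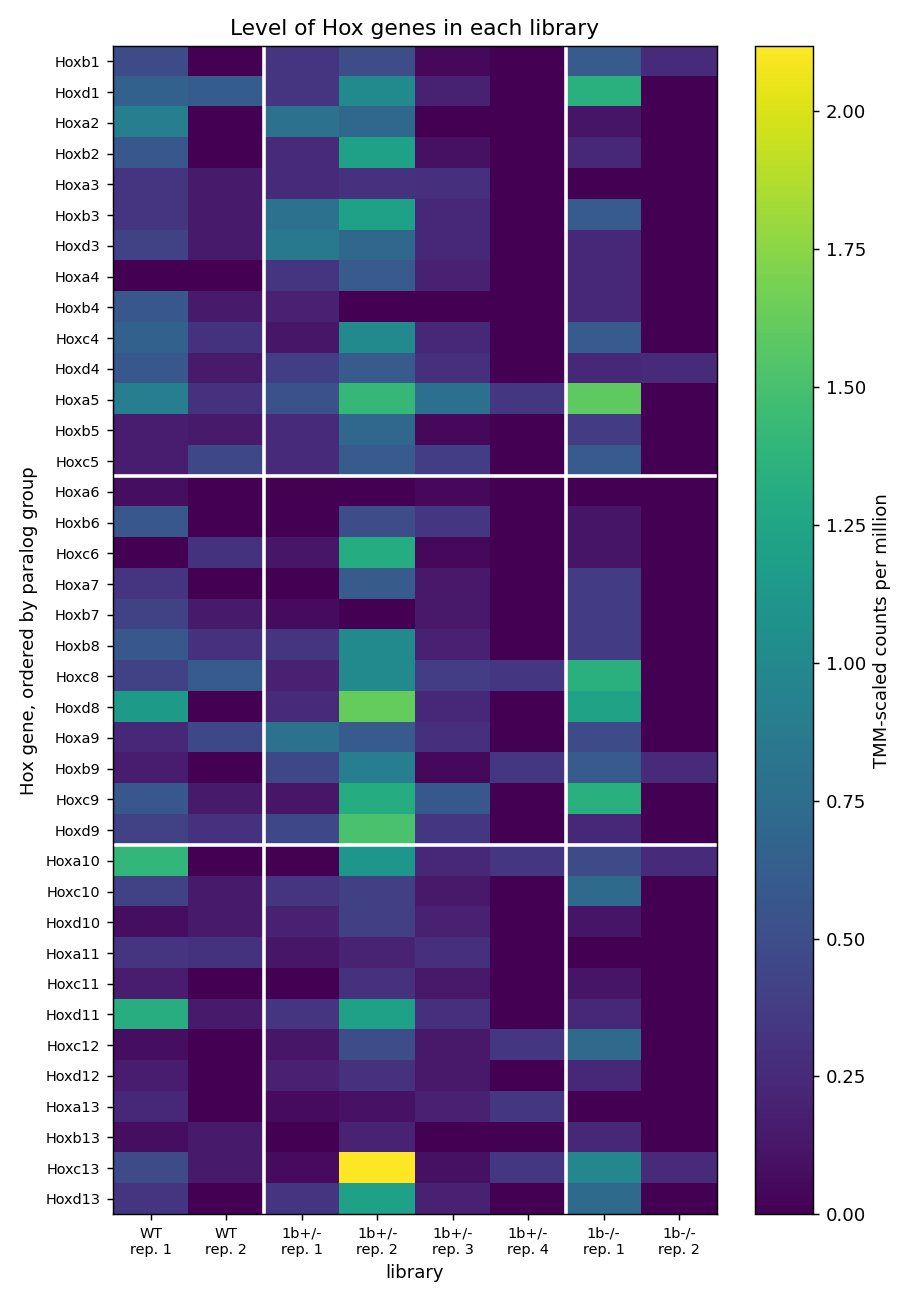
Level of the Hox genes described in the text (rows, ordered by paralog group, with white lines between groups 1 to 5, 6 to 9 and 10 to 13) in each of the 8 libraries (columns, with white lines between genotypes), as TMM-scaled CPM in colour. The column of 1b+/- replicate 2 is the brightest and holds the highest value, Hoxc13 at 2.12 CPM, and the columns of 1b+/- replicate 4 and 1b-/- replicate 2 are dark except for single counts.

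Among the 36 members with 10 or more counts in all, 16 (44.4%) had their highest level in 1b+/- replicate 2, where 20.5% of all genes with as many counts had theirs. WT replicate 1 was highest for 9 and 1b-/- replicate 1 for 8. In 1b+/- replicate 1 only Hoxa9 and Hoxd3 were highest (5.56%), against a background of 14.3% of all genes. Hoxa13 was the 1 member highest in 1b+/- replicate 4, on a single count, and no member was highest in WT replicate 2, 1b+/- replicate 3 or 1b-/- replicate 2.

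The Hox counts were not concentrated at the hindbrain end of the clusters. Over all libraries, groups 1 to 5 held 434 of 1033 counts (42.0%) with 38.5% of the members, groups 6 to 9 held 336 and groups 10 to 13 held 263. Per kilobase of exon this was 9.39, 10.5 and 8.27 counts, and the thoracic and lumbar genes were therefore about as dense as those of the hindbrain. The share of groups 1 to 5 was 42.2% (exact binomial 95% interval 35.4 to 49.2) in WT replicate 1, 37.3% (31.8 to 43.2) in 1b+/- replicate 2, 39.2% (31.7 to 47.0) in 1b+/- replicate 3 and 39.5% (31.7 to 47.7) in 1b-/- replicate 1. These 4 libraries differed by less than their counting intervals.

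Among libraries with 40 or more Hox counts, 1b+/- replicate 1 had the highest share of groups 1 to 5, at 56.3% (48.2 to 64.1). This interval did not overlap those of 1b+/- replicates 2 and 3 and 1b-/- replicate 1, but it overlapped those of both WT libraries. In level, groups 1 to 5 were not highest there. As CPM of the unscaled total they stood at 6.40. This was below 1b+/- replicate 2 (11.0), 1b-/- replicate 1 (7.14) and WT replicate 1 (7.08) and above the other libraries. Groups 10 to 13 of 1b+/- replicate 1 held 16.9% (11.4 to 23.6) against 29.4% (23.3 to 36.0) in WT replicate 1 and 17.5% (7.34 to 32.8) in WT replicate 2. Hoxa2, Hoxb3 and Hoxd3 with 12, 12 and 13 counts, together with Hoxa9 with 12, were the highest members of 1b+/- replicate 1. The clusters were also unevenly represented: Hoxc genes made up 13.1% (8.31 to 19.4) of the Hox counts in 1b+/- replicate 1 and 35.5% (27.9 to 43.7) in 1b-/- replicate 1, with 25.1% over all libraries. WT replicate 2 held 40 Hox counts, of which 45.0% (29.3 to 61.5) were from groups 1 to 5. The shares of 1b+/- replicate 4 and 1b-/- replicate 2 rested on 7 and 5 counts and could not be read at this depth.

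**Figure D3:**
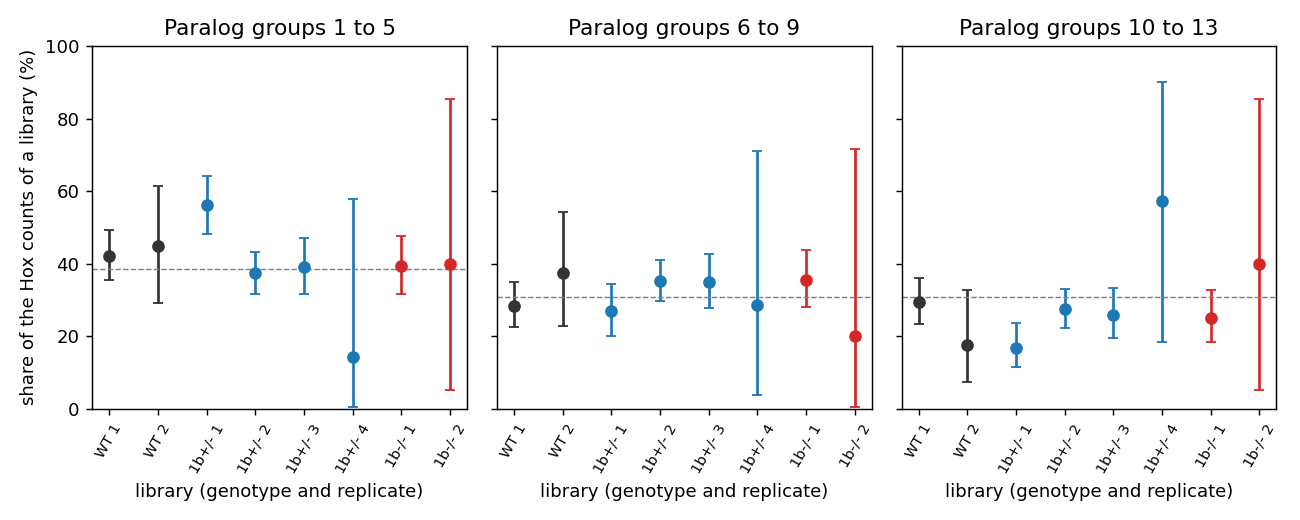
Share of the Hox counts of each library (vertical axis, percent) that fell in paralog groups 1 to 5, 6 to 9 and 10 to 13 (panels), with exact 95% binomial intervals as bars, WT in black, 1b+/- in blue and 1b-/- in red. The dashed line is the share of the 39 members that belong to the groups. 1b+/- replicate 1 has the highest share of groups 1 to 5 among libraries with 40 or more Hox counts, at 56.3%, and the last library of each mutant genotype has wide bars.

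Markers of the labelled tissue were strong in every library. A list of 14 forebrain transcription factors, among them Neurod6 and Bcl11b, summed to 4501 and 4179 CPM in WT, 2577, 4766, 3916 and 3674 CPM in 1b+/- and 4709 and 3193 CPM in 1b-/-, and was lowest in 1b+/- replicate 1. Scn1a itself followed the labels, with 45.1 and 40.4 CPM in WT, 26.6, 22.2, 25.4 and 15.7 CPM in 1b+/- and 3.18 and 2.0 CPM in 1b-/-.

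A list of 22 hindbrain and brainstem genes was highest in a library other than that of the Hox sum. Its summed level was 27.3 and 15.2 CPM in WT, 228, 77.4, 19.9 and 14.7 CPM in 1b+/- and 28.6 and 14.8 CPM in 1b-/-. It was highest in 1b+/- replicate 1, where 12 of its 22 genes had their highest level, while the Hox sum ranked 4 of 8 there. Its leading genes were Tfap2b, a factor of neural crest derivatives as well as of hindbrain and midbrain interneurons, Mab21l2 and Gata3, at 161, 25.1 and 16.7 CPM in that library and at most 48.5, 6.56 and 4.13 CPM in the others. Tfap2b made up most of the sum there. The median gene of the list was at 0.661 and 0.306 CPM in WT, 1.29, 1.21, 0.484 and 0 CPM in 1b+/- and 0.734 and 0.250 CPM in 1b-/-. By this measure 1b+/- replicates 1 and 2 stood close together and the other libraries lay below them, led by 1b-/- replicate 1 and WT replicate 1. In the Hox sum, by contrast, 1b+/- replicate 1 (10.6 CPM) lay below 1b-/- replicate 1 (18.6 CPM) and WT replicate 1 (17.4 CPM). Markers of single brainstem cell groups were at low counts in 1b+/- replicate 1: Slc6a2 of noradrenergic neurons had 50, Slc6a5 of glycinergic neurons 11 and Tph2 of serotonergic neurons 5.

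The same library was high in non-neural lists. Its meningeal and fibroblast genes (17, led by Col3a1, Col1a2 and Col1a1) summed to 1989 CPM, against 568 to 1093 CPM in the other 7 libraries. Its list of cartilage, bone and skeletal muscle genes (16, led by Ibsp, Col2a1 and Myh3) stood at 125 CPM, against 31.3 to 58.2 CPM elsewhere. Epidermal genes (13, led by Krt1, Krt10 and Krt15) stood apart in WT replicate 1, at 297 CPM against 20.4 to 44.7 CPM in the other libraries, and mesothelial and urothelial genes (12, led by Krt18, Krt8 and Krt19) were at 98.9 and 37.2 CPM in the WT libraries and 3.29 to 7.58 CPM in the mutants. Hoxc13, the keratin regulator, had 6 counts in WT replicate 1. The part of these cells in the Hox counts was not tested.

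Spinal motor neuron genes (10, led by Isl1, Olig2 and Chodl) ranged from 54.1 to 87.2 CPM in sum. Among the members at low levels, Mnx1 was at 0 in 4 libraries with at most 9 counts in any and Chat had 11 or fewer, but Isl2 had 47 counts in 1b+/- replicate 1 (3.10 CPM, against at most 0.908 CPM in the others). Lists of peripheral and sensory ganglia (11, led by Isl1, Pou4f1 and Prph), 33.7 to 88.8 CPM, and of midbrain genes (17, led by Nr4a2, Otx2 and Pou4f1), 109 to 240 CPM, overlapped between genotypes in their sums. Nr4a2 carried most of the midbrain sum, and 10 of the 17 midbrain genes and 7 of the 11 ganglion genes had their highest level in 1b+/- replicate 1. There En2 of the midbrain and hindbrain border region stood at 15.6 CPM, against at most 2.52 CPM elsewhere, and Prph of peripheral and cranial motor neurons at 12.3 CPM, against at most 1.75 CPM. Cerebellar genes (16, led by Zic1, Zic2 and Cbln1) ranged from 321 to 693 CPM, and their sum, carried by Zic1 and Zic2, was highest in 1b+/- replicate 2. By gene, however, 9 of the 16 were highest in 1b+/- replicate 1 and 4 in 1b+/- replicate 2. Barhl1 and Atoh1, genes of the granule cell lineage, stood at 14.2 and 4.15 CPM in 1b+/- replicate 1 and at most 3.53 and 0.248 CPM elsewhere. The part of such cells in the Hox counts was not tested. Diencephalic genes (12, led by Lhx9, Tcf7l2 and Rora) ranged from 58.1 to 286 CPM, highest in 1b+/- replicate 1, with 277 CPM in WT replicate 1. Choroid plexus genes (12, led by Ttr, Enpp2 and Clic6) were lowest in 1b+/- replicate 2 (114 CPM) and highest in WT replicate 2 (1135 CPM), so that the library with the highest Hox sum had the lowest choroid plexus sum. Endothelial genes (12, led by Kdr, Cdh5 and Pecam1) ranged from 269 to 425 CPM, and blood and immune genes (14, led by Alas2, Coro1a and Ppbp) from 42.5 to 135 CPM.

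A gene family that is silent in brain tissue moved with the Hox genes. Olfactory receptor genes (1102 rows, a family looked at after the data had been seen) are expressed in sensory neurons of the nose, and all but 140 of them had a count in some library. Their sum was 77.8 and 23.3 CPM in WT, 36.5, 106, 43.4 and 6.34 CPM in 1b+/- and 88.1 and 16.5 CPM in 1b-/-. The 3 highest libraries were the same for both families and in the same order (1b+/- replicate 2, 1b-/- replicate 1, WT replicate 1), and the lowest 2 were 1b+/- replicate 4 and 1b-/- replicate 2 for both. For each 100 olfactory receptor counts a library held from 18.5 to 28.9 Hox counts in the 6 libraries with 40 or more Hox counts, with 28.9 in 1b+/- replicate 1 and 27.8 in 1b+/- replicate 2. In 1b+/- replicate 4 and 1b-/- replicate 2 it was 36.8 and 7.58, on 7 and 5 Hox counts. As CPM of the unscaled total per kilobase of exon, the Hox level was 0.268 in 1b+/- replicate 2 and 0.152 in WT replicate 1, and that of the olfactory receptors was 0.0931 and 0.0657.

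**Figure D4:**
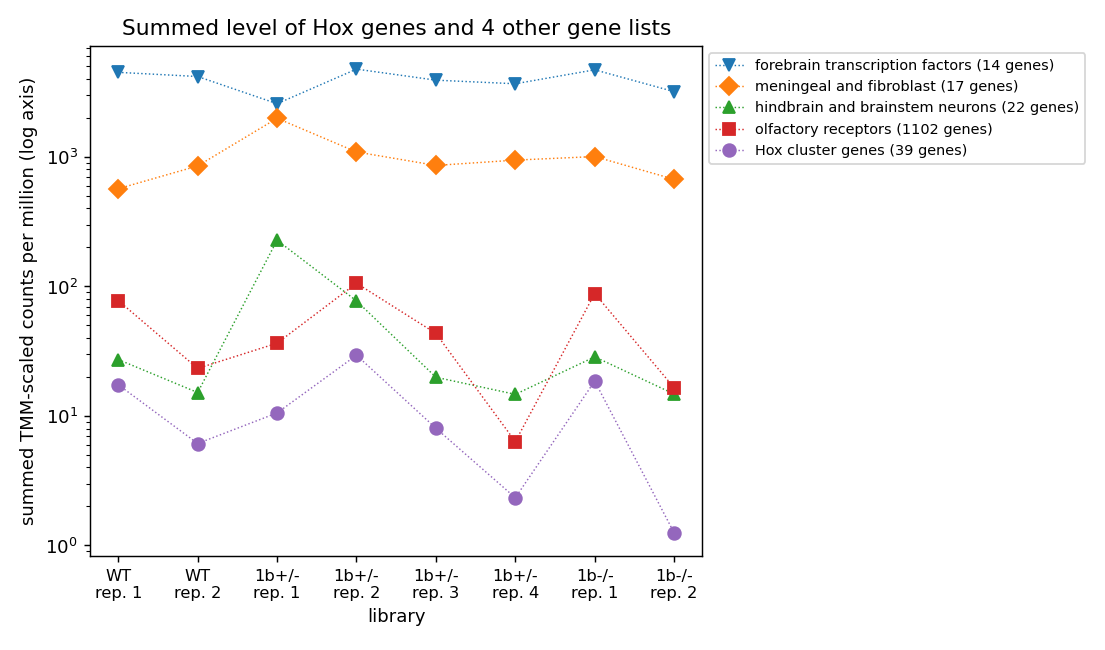
Summed level (vertical log axis, TMM-scaled CPM) of the 39 Hox genes, the 1102 olfactory receptor genes and lists of 22 hindbrain, 17 meningeal and 14 forebrain genes in each library (horizontal axis). Dotted lines join points of a list only to guide the eye. The Hox points follow those of the olfactory receptors, both highest in 1b+/- replicate 2 (29.4 and 106 CPM), whereas the hindbrain and meningeal lists peak in 1b+/- replicate 1 (228 and 1989 CPM).

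Vomeronasal receptors (329 rows, also looked at after the data had been seen) ran in the same way, with 6.34 CPM in 1b+/- replicate 4 as the lowest sum and 40.1 CPM in replicate 2 of that genotype as the highest. Keratin-associated proteins (52 rows) and beta defensins (42 rows), added at the same time, stayed between 0.25 and 4.05 CPM in sum and were highest in WT replicate 1 at 4.05 and 3.06 CPM. Among 13961 genes outside the Hox family with a mean of at least 1 CPM, the 15 whose log2 level was most like the log2 summed Hox level over the 8 libraries had Pearson correlations of 0.953 to 0.984. These are a description only, since the points share their library, depth and composition. They included Vmn2r29, Nfatc3, Vps29, Slc12a2, Rps20, Bnip3, Alg11, Zfp760, Ctage5, D930016D06Rik, Zfp931, Prg4, Vps4b and 9230114K14Rik. The vomeronasal receptor gene Vmn2r29, at the top of these, was lowest in 1b-/- replicate 2, at 1.25 CPM, and highest in 1b+/- replicate 2, at 7.06 CPM. Nfatc3, Vps29 and Slc12a2 differed by only 1.52, 1.41 and 1.26 times between their highest and lowest libraries.

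Genes that work with the Hox clusters were present at levels that Hox genes did not reach. HOX cofactors of the TALE homeodomain class (9, among them Meis2 and Pbx3) have roles in the forebrain of their own, and they summed to 1421 to 1766 CPM. Polycomb and Trithorax genes (19, led by Ezh2, Rnf2 and Bmi1), which keep the clusters silent or active, summed to 1430 to 1878 CPM. Regulators of Hox expression in the embryo (16, among them Rarb and Cyp26b1) summed to 168 to 211 CPM, but the Cdx factors that open the posterior clusters were nearly absent, with at most 26 counts in a library for Cdx2, 11 for Cdx1 and 5 for Cdx4. The neighbours of the clusters outside the family (13, led by Lnp, Snx10 and Mtx2) summed to 203 to 259 CPM. Lnp, next to Hoxd, was at 103 to 140 CPM in every library, while Evx1 and Evx2, homeobox genes at the ends of the clusters, had at most 7 and 11 counts. The cluster RNAs Hottip and Hotair had at most 8 and 4 counts.

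No Hox gene passed the test between genotypes. In the edgeR quasi-likelihood test, 15 of the 39 members reached 1 CPM in at least 1 library and were tested, and the other 24 were not. All of those tested reached it in 1b+/- replicate 2, and only 7 reached it in another library as well. At a Benjamini-Hochberg adjusted p of 0.05, 0 of 15 passed in 1b+/- against WT, where 0.0834% of all genes tested did. For the homozygous mice, 0 of 15 passed in the comparison with WT, where 0.00642% of all genes did, and 0 of 15 in the comparison with heterozygous mice, where again 0.00642% did. No member had an unadjusted p under 0.05 in any of the 3. The edgeR likelihood ratio test and the Wald test of DESeq2 gave 0 calls and 0 unadjusted p-values under 0.05 as well. In a fit with no filter, which covered all 39 members, edgeR called 0 in each comparison, against 0.254%, 0.147% and 0.00446% of all genes, and Hoxa4 in 1b+/- against WT was the 1 member with an unadjusted p under 0.05 (0.0322, adjusted p = 1). Hoxa4 had no count in the WT libraries, where 0 counts allowed 0.239 and 0.445 CPM.

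The errors of these comparisons were wide. Hoxd11 had the smallest p in 1b-/- against WT, with a log2 fold change of -2.27 ± 1.49 (SE, adjusted p = 1 by edgeR), from 1.32 and 0.153 CPM in WT and 0.245 and 0 CPM in 1b-/-. Hoxb3 had the smallest in 1b+/- against WT, with 1.21 ± 1.11 (adjusted p = 0.99994), and Hoxd9 in 1b-/- against 1b+/-, with -1.91 ± 1.32 (adjusted p = 0.99998). Standard errors of the 15 members ran from 0.89 to 2.71 on the log2 scale, so that changes of the size estimated here could not be told from 0 at this depth. Over all 39 members in the fit with no filter, 20 were higher in 1b+/- than in WT and 19 lower, with a median log2 fold change of 0.03. In the same fit, 21 and 24 of 39 were lower in 1b-/- than in WT and than in 1b+/-, with medians of -0.31 and -0.28. The tested members of the filtered fit had medians of 0.25, 0.14 and 0.03 in the 3 comparisons. Over all genes tested the medians were 0.012, -0.0056 and -0.0043. The tested members passed the filter through 1b+/- replicate 2, which favours higher values in 1b+/-, so the 2 sets of medians cannot be compared.

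**Figure D5:**
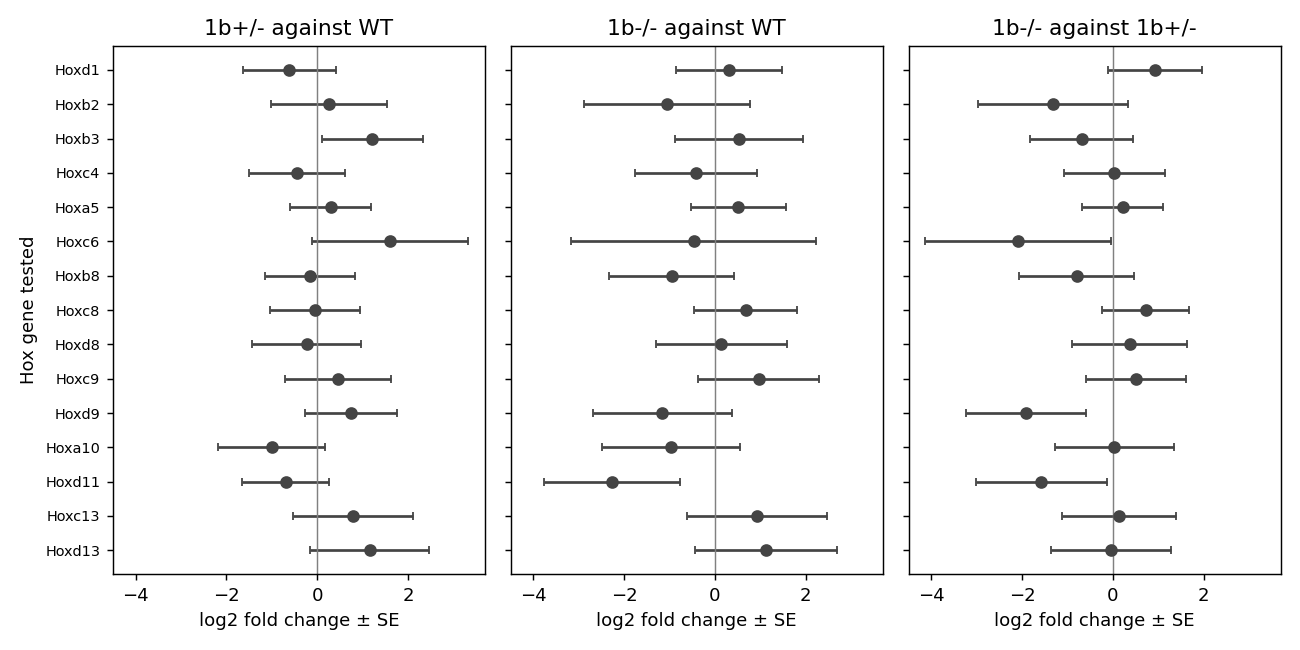
Log2 fold change (horizontal axis) with its standard error (bars) of the 15 Hox genes tested (vertical axis, by paralog group) in the 3 comparisons between genotypes (panels, with the genotypes named above each), from the edgeR quasi-likelihood fit. Points lie on both sides of 0 in each panel, and none passed the threshold.

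The 2 WT libraries had a mean summed Hox level of 11.8 ± 7.99 CPM (SD). The mean of the 4 heterozygous libraries was 12.6 ± 11.8 CPM, and the 2 homozygous libraries had 9.92 ± 12.3 CPM. The genotypes overlapped over most of their range, and the spread within a genotype was larger than any difference between means. Member by member, the libraries of 1b+/- and WT did not overlap for 3 of the 36 members with 10 or more counts (8.33%), where 11.6% of all genes did not. Hoxc12 was higher in 1b+/-, and Hoxa11 and Hoxb7 were lower. For 1b-/- against WT the number was 4 (11.1%, against 23.5% of all genes), with Hoxb9 higher and Hoxa3, Hoxa11 and Hoxd9 lower. For 1b-/- against 1b+/- it was Hoxa13 alone (2.78%, against 7.29%).

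Single libraries decided the direction of these comparisons. Without 1b-/- replicate 1, all 15 tested members were lower in 1b-/- than in WT and than in 1b+/-, with medians of -5.08 and -5.28 on the log2 scale, since the 1b-/- library left held 5 Hox counts. Without 1b+/- replicate 2 only 7 members reached 1 CPM, through WT replicate 1 or 1b-/- replicate 1 and none in a 1b+/- library. All 7 were lower in 1b+/- than in WT, with a median of -1.45, a direction that this filter favours. No member passed the threshold under either omission. The mean summed level of 1b+/- without replicate 2 was 6.98 CPM, and that of 1b-/- without replicate 1 was 1.25 CPM.

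The genes of the other lists were called in few cases. Of 9 HOX cofactors, 19 Polycomb and Trithorax genes, 12 regulators of Hox expression and 5 cluster neighbours tested, 0 passed the edgeR threshold in any of the 3 comparisons, and 0 had an unadjusted p under 0.05. The likelihood ratio test and DESeq2 also called 0 of them, with an unadjusted p under 0.05 in DESeq2 for 1 regulator and 1 Polycomb gene. Of 16 hindbrain, 15 midbrain, 13 cerebellar, 8 spinal motor and 10 ganglion genes tested, 0 passed in any comparison by any of the 3 tests. In 1b+/- against WT, 2 of the 16 hindbrain genes had an unadjusted p under 0.05 by edgeR, and the median log2 fold change of the list was 0.79. Without 1b+/- replicate 1 that median was 0.26. In 1b-/- against WT, 0 of 16 had one and the median was -0.41. Of 15 midbrain and 13 cerebellar genes, 4 and 3 had an unadjusted p under 0.05 in 1b+/- against WT, as did 676 of all 15588 genes tested. In the same comparison this held for 7 of 17 meningeal genes (all 17 higher, median log2 fold change 0.76), 5 of 12 choroid plexus genes (median -1.22) and 4 of 10 cartilage, bone and muscle genes (median 0.16), with 0 called by edgeR's quasi-likelihood test in each list.

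The epidermal and mesothelial lists were chosen with earlier results of these data known, so their calls are a description and no independent test. By edgeR's quasi-likelihood test, 4 of 13 epidermal genes were called lower in 1b+/- than in WT (Krt6a, Krt13, Krt15 and Scel). So were 5 of 9 mesothelial and urothelial genes (Msln, Upk3b, Upk1b, Krt8 and Krt19) and Ppbp, a platelet gene. Of all genes tested, 0.0834% were called in that comparison. In 1b-/- against WT, 0 genes of these lists were called, where 0.00642% of all genes were. The likelihood ratio test and DESeq2 called members in 1b-/- against WT as well, with 4 and 3 epidermal genes, 6 and 3 mesothelial genes and Ppbp by both. The likelihood ratio test also called Sp7, a bone gene, and Slc4a5, a choroid plexus gene, in 1b+/- against WT. For the likelihood ratio test and DESeq2, the share of all genes called is not given here. Without WT replicate 1, 0 epidermal and 0 mesothelial genes passed in 1b+/- against WT, with 4 and 7 at an unadjusted p under 0.05. The median log2 fold change of the epidermal genes then went from -2.76 to -1.03 and that of the mesothelial genes from -4.33 to -3.50. In WT replicate 1, the library in which the epidermal and mesothelial lists were highest, the Hox sum ranked 3 of 8, after 1b+/- replicate 2 and 1b-/- replicate 1. The part of such cells in the Hox counts was not tested.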

How the data were processed

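Stranded poly(A) libraries (TruSeq) were read from a single end at 50 bases on an Illumina HiSeq. Per the labels and the published methods, the authors mapped reads to mm9 (STAR 2.7.2) and summed them by gene (featureCounts). The deposited counts are whole numbers per gene symbol, not normalized. The annotation used for counting, the use of strand and the treatment of reads with several matches are not given in the sources used here. Total counts ranged from 2947770 to 20878772 per library, and intervals and limits of detection cover counting error only.

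Groups and sexes were taken from the labels, and replicate numbers follow sample order, which pairs no animals. The 39 Hox genes, the gene lists and the tests were chosen with earlier results of these data known. In R 4.3.3, edgeR 4.0.16 was run on the 15588 genes that reached 1 CPM in 1 or more libraries, over all 8 libraries, scaled by TMM and with no factor but genotype, by the quasi-likelihood test with Benjamini-Hochberg adjustment at 0.05. Alternatives were RLE and upper quartile scaling, filterByExpr, no filter, the likelihood ratio test, DESeq2 1.42.0, sex as a covariate, only the groups compared and omission of each library. The tests were tested on simulated data. Detection was set at 3 counts, and the number expected at the smallest depth came from the hypergeometric distribution. Positions, exon lengths and sequences came from GENCODE vM1 (NCBIM37, which is mm9), where all 39 symbols were found. Hoxa3 has a second record of the same name there, and the record with the longer coding sequence was used. Members with at least 10 counts in all were named with every value, the other genes of a list by the 3 of highest mean level, and genes like the Hox sum by Pearson correlation of log2(CPM + 0.5). Other genes were named after their values were seen. Some genes that these rules name, 1 Hox gene among them, and some sequence are not reported here.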

Additional observations from a re-analysis of the deposited data

Results flagged for a closer look

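In a group of 4 libraries, a value is set out here when its gap to the nearest other value, as a share of the range of the group, exceeded Dixon's 95% limit, which only the 1b+/- group is large enough to allow. Of 66 measures compared, 8 met this. Chance alone would give about 1 in 20, or 3.3, if the measures were independent and normally distributed. They were not, because single genes also enter the sums and many values rest on few counts. The 8 and the 3.3 therefore cannot be set against each other. In 1b+/- replicate 2, Hoxc13 stood at 2.12 CPM, with the other 3 libraries at 0.0659, 0.0969 and 0.334 CPM. In the same library Hoxc6 stood at 1.31 CPM, with at most 0.132 CPM in the other 1b+/- libraries. Hoxd8 stood at 1.61 CPM there, with at most 0.264 CPM in the other 1b+/- libraries. Outside that genotype Hoxd8 was at 1.16 CPM in WT replicate 1 and 1.22 CPM in 1b-/- replicate 1. Among the 1b+/- libraries, the sum of paralog groups 10 to 13 was 8.07 CPM in replicate 2 against at most 2.08 CPM. That of the Hoxc cluster was 8.57 CPM against at most 2.18 CPM. In WT replicate 1 and 1b-/- replicate 1 the sum of groups 10 to 13 was 5.12 and 4.65 CPM, and that of Hoxc 2.97 and 6.60 CPM. In 1b+/- replicate 1, Hoxb4 stood at 0.198 CPM on 3 counts, and the other 3 libraries had 0 counts, which allowed up to 0.303, 0.144 and 1.02 CPM, so that 2 of the 3 could hold as much without a count. Diencephalic transcription factors in 1b+/- replicate 1 also stood apart from the other 1b+/- libraries, at 286 CPM against at most 96.8 CPM. They did not stand apart over the series, as WT replicate 1 held 277 CPM and 1b-/- replicate 2 held 184 CPM. In 1b+/- replicate 4 Hoxa3 was at 0.0 CPM, where 0 counts allowed up to 1.02 CPM, with 0.264 to 0.303 CPM in the others.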

How the results depend on the processing

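No Hox gene was called in any comparison (0 of those tested) under any alternative run, scaling, filter, test, sex and omission of a library included. The smallest adjusted p of any of these fits was 0.897. The direction of the tested members was less stable. With sex as a covariate 4 of 15 changed sign in 1b+/- against WT, and 5 of 15 in each comparison of homozygous mice (with WT and with 1b+/-). The median log2 fold change was then 0.51, 1.55 and 0.86, against 0.25, 0.14 and 0.03 without it. Over the omissions the median log2 fold change ran from -1.45 to 1.62, from -5.08 to 1.24 and from -5.28 to 1.31 in these comparisons, taken in that order. The -1.45 and the 1.31 came from the omission of 1b+/- replicate 2. That fit tested only 7 members, none of them at 1 CPM in a 1b+/- library. An omission that left 1 library in a genotype assumed that it varies like the other genotypes. Of 516 values of single members recomputed, 420 moved by less than the spread between replicates and 96 by more. The number of members detected depended on the limit: with at least 10 counts it was 5 and 0 in WT, 4, 15, 2 and 0 in 1b+/- and 5 and 0 in 1b-/-. With at least 1 count it was 24 in WT replicate 2, 7 in 1b+/- replicate 4, 35 in 1b-/- replicate 1 and 5 in 1b-/- replicate 2. With at least 3 counts at the smallest depth, 6.24 and 0.62 would be expected in WT, 3.29, 14.91, 1.33 and 0 in 1b+/- and 7.28 and 0 in 1b-/-. In each library the TMM-scaled summed level lay within the exact Poisson interval of its CPM of the unscaled total. That interval covers counting error only. No paired analysis was possible because the replicate numbers follow the order of the samples and pair no animals.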
